A study of Homo sapiens with 10 samples.

Results

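The genes examined here were 45 genes of DNA double-strand break repair, found in the gene count table by matching Ensembl identifiers to symbols. All 45 of 45 were found among the 61587 genes of the table, and all 45 passed the minimum of 200 counts over the 10 samples. They were sorted into 15 genes of homologous recombination, 11 of the Fanconi anaemia pathway, 8 of break sensing and checkpoint signalling, 7 of non-homologous end joining, 3 of the 53BP1 chromatin response, and POLQ alone for polymerase theta end joining. The samples were cultures of RPTEC/TERT1 cells, a human proximal tubular epithelial line immortalised with telomerase, and bulk poly-A RNA-seq was performed on them. The 5 irradiated samples had received 10 Gy of ionising radiation and the 5 control samples 0 Gy (mock irradiation), and all were collected on day 7. The line is a single immortalised line, so every sample shares its telomerase transgene. Each irradiated sample was paired with the control of the same replicate number.

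A double-strand break is repaired mainly along 1 of 2 routes. Homologous recombination resects the broken ends, loads a recombinase with the help of BRCA1, PALB2 and BRCA2, and copies the sister chromatid, so it works in the S and G2 phases of the cell cycle. Non-homologous end joining holds the ends with the Ku proteins and DNA-PK and ligates them, at any point of the cycle. The Fanconi anaemia pathway handles DNA interstrand crosslinks and hands the resulting breaks to recombination. Polymerase theta joins resected ends through short stretches of matching sequence.

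The samples held between 66269311 and 131555873 counts on genes. Control replicates 1 and 3 stood apart from control replicates 2, 4 and 5 in proliferation genes. Mean log2 CPM (counts scaled to library size) over 20 mitosis genes was 3.32 and 3.36 in those 2 controls and 4.62 to 4.73 in the other 3, while the 5 irradiated samples lay between 1.84 and 2.50. The kidney epithelial markers were all detected, with CDH16 (log2 fold change -0.78) and CDH1 (-0.18) called lower. Of 10 proximal tubule markers, 6 reached 200 counts. The list summed to 219 to 389 CPM in controls and 243 to 488 CPM in irradiated samples, mostly from ANPEP. AQP1 of that list was called lower (log2 fold change -0.61), and HNF4A, LRP2, SLC34A1 and SLC22A6 were at or near 0 (total counts of 12, 17, 86 and 1). Summed fibroblast and pericyte markers, of which 2 of 6 reached 200 counts, were at 15.9 to 23.5 CPM in controls and 28.6 to 40.1 CPM in irradiated samples, mostly from COL1A1, and COL3A1 held 4 counts in all. DCN of that list rose (log2 fold change 2.36, mean 0.315 to 1.75 CPM). Endothelial markers, of which 3 of 5 reached 200 counts, summed to 1.39 to 2.48 CPM in controls and 4.17 to 6.11 CPM in irradiated samples, with CDH5 (log2 fold change 2.48) and PECAM1 (0.72) called higher, and KDR held 2 counts in all. Leukocyte markers, of which 3 of 6 reached 200 counts, summed to 0.504 to 0.771 and 1.81 to 2.49 CPM, with ITGAM (log2 fold change 4.71, mean 0.0436 to 1.24 CPM) and CD14 (1.09) called higher, and CD3E held 3 counts in all. The part of these markers in the results was not tested.

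To ask which repair routes differed a week after irradiation, each gene was tested across the 5 pairs with edgeR's quasi-likelihood test and Benjamini-Hochberg adjustment over all 19006 genes tested. Of the 45 repair genes, 26 fell, 2 rose (LIG4 and RAD50) and 17 did not pass the test. Among all genes tested, 22.7% fell and 23.9% rose. Without replicate 4 the count of falls was 15, against 2972 of all 18264 genes tested in that fit. Without replicate 5 it was 14, against 2943 of 18244. The call of RAD50 was lost under 11 of 14 alternatives. Falls of more than 2-fold were called for 12 of the 45 genes and for 4.06% of all genes, and rises of more than 2-fold for 0 of the 45 and for 5.26% of all genes. At an unadjusted p under 0.05, 26 of the 45 were lower and 3 higher. The share of all genes at that cut was not taken, so these counts cannot be set against all genes. The median log2 fold change was -0.26 over the 45 genes and -0.01 over all genes. In 15 of the 45 every irradiated sample lay under every control, against 12.0% of all genes. In this bulk RNA, fewer cycling cells and less RNA of a gene per cell cannot be told apart.

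Counts of falls differed between the routes. In homologous recombination, 11 of 15 genes fell, 9 of them by more than 2-fold, with a median log2 fold change of -1.18. In the Fanconi anaemia pathway, 9 of 11 fell, 2 by more than 2-fold, with a median of -0.81. Without replicate 4 the recombination count was 7 and the Fanconi count 5. Without replicate 5 they were 7 and 4, and without replicate 2 they were 10 and 6. Over all genes tested, falls in these fits were 2972 of 18264, 2943 of 18244 and 4024 of 18198, in the same order. POLQ fell. Of the 7 non-homologous end-joining genes, NHEJ1 fell, LIG4 rose and 5 did not pass, with a median of 0.04. Of the 8 sensing and checkpoint genes, TOPBP1 and MRE11 fell and RAD50 rose, with a median of -0.08, and of the 3 genes of the 53BP1 response, MDC1 and TP53BP1 fell.

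**Figure D1:**
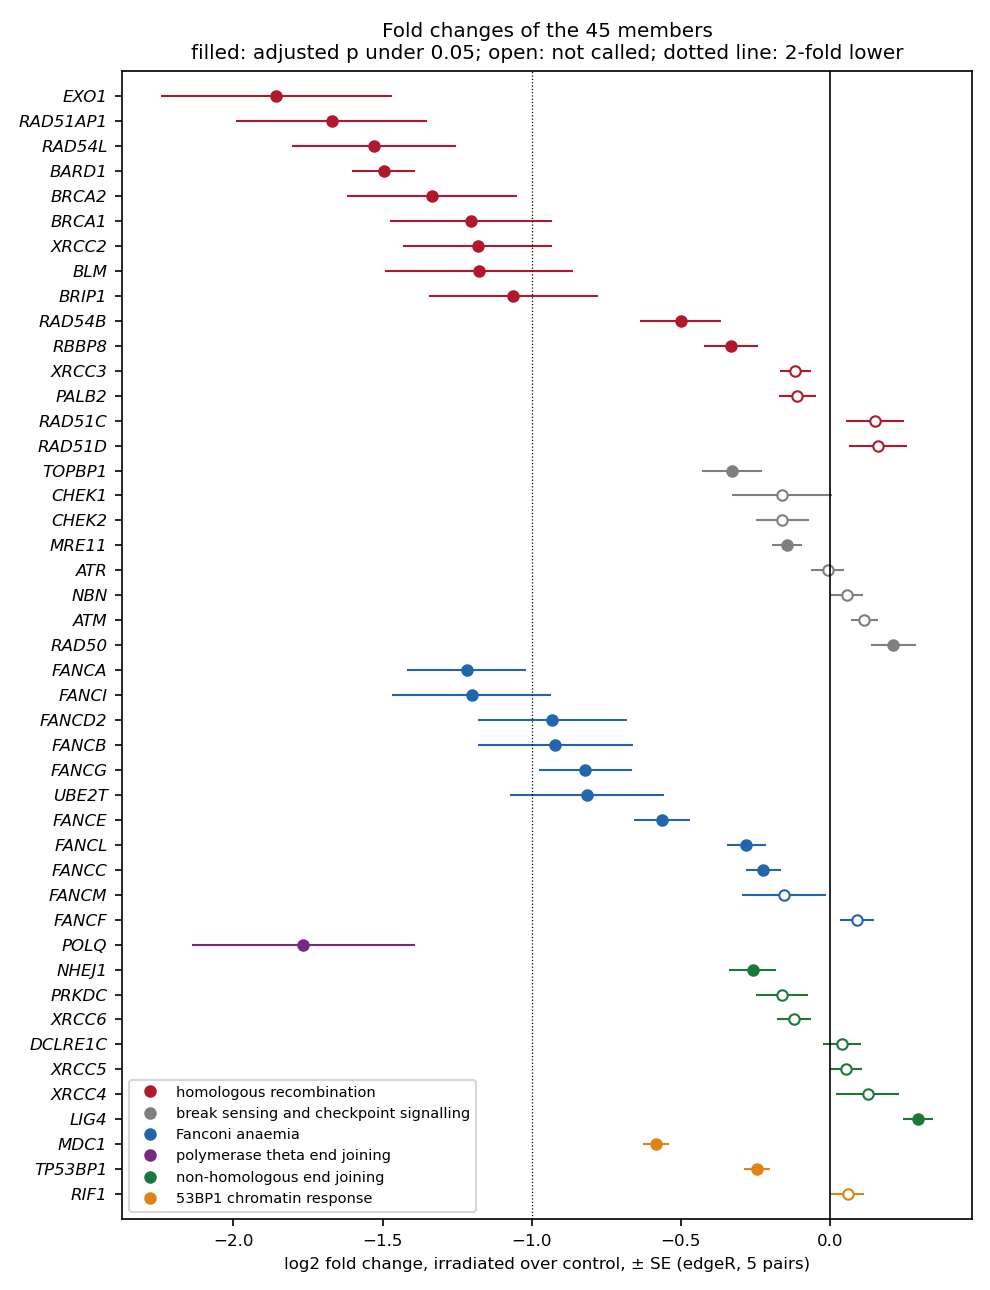
Log2 fold change (irradiated over control, x axis) with its standard error for each of the 45 genes, coloured by class, from 5 pairs. The 12 genes left of the dotted 2-fold line are 9 of homologous recombination, FANCA, FANCI and POLQ, while the non-homologous end-joining genes lie between -0.26 and 0.30.

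Promoter sequences are shown for the largest fall of each of 4 routes, EXO1, FANCA, POLQ and NHEJ1, and for DCLRE1C, an end-joining gene with the fold change nearest to 0 among those routes, to set the start regions of genes that fell and of a gene near 0 beside each other. They were taken from RefSeq (GRCh38.p14) and run 5′ to 3′ on the strand of the gene from 250 bases before the start of transcription to 30 bases after it. EXO1 lies on the plus strand (chr1:241847954-241848233) and the other genes on the minus strand, FANCA at chr16:89816618-89816897, POLQ at chr3:121545959-121546238, NHEJ1 at chr2:219160786-219161065 and DCLRE1C at chr10:14954067-14954346. Capitals mark the motif letters searched for, on both strands: TTTCGCGC or TTTGGCGC for E2F, TTTGAA or TTCGAA for the cell cycle genes homology region (CHR), and CCAAT.
EXO1: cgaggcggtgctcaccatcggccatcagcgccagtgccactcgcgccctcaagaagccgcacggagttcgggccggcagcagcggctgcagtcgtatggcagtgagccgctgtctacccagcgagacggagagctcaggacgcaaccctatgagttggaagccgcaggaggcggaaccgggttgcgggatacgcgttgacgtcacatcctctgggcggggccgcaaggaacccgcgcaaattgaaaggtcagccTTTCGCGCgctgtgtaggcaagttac
FANCA: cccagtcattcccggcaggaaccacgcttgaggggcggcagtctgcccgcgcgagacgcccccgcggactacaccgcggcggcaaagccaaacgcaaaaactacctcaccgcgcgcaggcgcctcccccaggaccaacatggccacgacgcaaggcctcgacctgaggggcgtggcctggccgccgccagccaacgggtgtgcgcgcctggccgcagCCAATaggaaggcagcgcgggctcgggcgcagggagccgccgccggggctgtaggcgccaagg
POLQ: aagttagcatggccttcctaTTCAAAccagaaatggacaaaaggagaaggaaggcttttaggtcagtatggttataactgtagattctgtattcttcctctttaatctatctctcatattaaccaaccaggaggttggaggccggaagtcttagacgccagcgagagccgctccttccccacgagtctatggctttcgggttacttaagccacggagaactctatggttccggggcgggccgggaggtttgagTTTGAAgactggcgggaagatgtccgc
NHEJ1: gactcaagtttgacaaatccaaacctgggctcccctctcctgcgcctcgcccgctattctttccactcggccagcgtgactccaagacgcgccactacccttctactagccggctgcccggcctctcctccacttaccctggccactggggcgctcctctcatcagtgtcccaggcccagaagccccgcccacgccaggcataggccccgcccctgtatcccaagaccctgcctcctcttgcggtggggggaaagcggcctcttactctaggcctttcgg
DCLRE1C: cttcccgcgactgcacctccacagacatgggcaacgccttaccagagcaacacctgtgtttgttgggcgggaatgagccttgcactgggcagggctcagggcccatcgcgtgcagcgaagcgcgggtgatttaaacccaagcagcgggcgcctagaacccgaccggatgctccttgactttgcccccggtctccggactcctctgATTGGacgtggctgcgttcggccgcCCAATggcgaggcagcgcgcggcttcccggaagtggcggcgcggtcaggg
EXO1 held the E2F letters, beginning 5 bases into the transcript. POLQ held the CHR letters beginning 4 bases into the transcript and, on the opposite strand, 230 bases before it. FANCA and DCLRE1C both held CCAAT, beginning 33 and 20 bases before the start, and DCLRE1C held it again on the opposite strand at 45 bases before. No searched letters were found in the NHEJ1 window.

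Over the 40 repair genes with a promoter in the RefSeq table (250 bases before to 50 after the start), the E2F letters were found in 4 (10.0%), the CHR letters in 7 (17.5%) and CCAAT in 22 (55.0%). Of all 35116 promoters of the table, 1.15%, 16.4% and 34.6% held them. Among the 24 genes with a promoter that fell and the 16 that did not, E2F letters were in 3 and 1, the CHR letters in 5 and 2, and CCAAT in 10 (41.7%) and 12 (75.0%). With the split at falls of more than 2-fold, 11 genes against the other 29, the E2F letters were in 1 and 3, the CHR letters in 2 and 5, and CCAAT in 6 (54.5%) and 16 (55.2%). These shares were not tested against each other. A match of letters is a description of the window and not evidence that a factor binds there.

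Among the recombination genes, EXO1, the exonuclease that extends resection of the broken end, showed the largest fall. Its TMM-normalised level was 2.84, 9.67, 2.06, 8.46 and 8.64 CPM in control replicates 1 to 5 and 1.44, 1.03, 1.58, 1.81 and 1.62 CPM in the irradiated replicates. The groups did not overlap, but controls 1 and 3 lay far nearer to the irradiated samples than the other controls did. EXO1 (chr1:241847967-241895148, plus strand) was 3.62-fold lower, with a log2 fold change of -1.86 ± 0.39 (SE, n = 5 pairs, adjusted p = 0.0060). RAD51AP1, which stimulates strand invasion, stood at 4.53, 12.4, 4.04, 11.8 and 11.6 CPM in controls and at 2.75, 1.91, 2.57, 3.11 and 2.27 CPM after irradiation. It fell 3.18-fold (log2 fold change -1.67 ± 0.32, adjusted p = 0.0041), again without overlap and with controls 1 and 3 as the lowest. RAD54L, a motor protein that helps the invading strand find its partner, was at 4.84, 9.10, 3.24, 7.66 and 6.83 CPM in controls and at 2.42, 1.91, 2.48, 1.94 and 1.70 CPM in irradiated samples (log2 fold change -1.53 ± 0.27, adjusted p = 0.0031). Of the RAD54L exons, 19.9% lie under LRRC41 on the opposite strand, where reads of either gene are lost.

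BRCA1 and BRCA2 both fell. BRCA1, which forms a ubiquitin ligase with BARD1 and promotes resection, was at 10.7, 23.1, 10.0, 24.6 and 23.3 CPM in controls and at 8.18, 5.33, 8.01, 8.38 and 7.54 CPM in irradiated samples. All irradiated samples lay below all controls, and the log2 fold change was -1.20 ± 0.27 (adjusted p = 0.0084). For BRCA2, the loader of the recombinase, controls were at 4.24, 10.9, 3.48, 10.9 and 11.1 CPM and irradiated samples at 2.91, 2.48, 2.83, 3.14 and 3.15 CPM. Its irradiated samples spanned a narrow range under the lowest control, and it fell by 1.33 ± 0.28 on the log2 scale (adjusted p = 0.0067). PALB2, the bridge between both, did not pass the test (log2 fold change -0.11, adjusted p = 0.19), and its irradiated samples at 12.3 to 13.8 CPM overlapped controls at 13.3 to 15.6 CPM.

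BARD1, the partner of BRCA1, was singled out after its values were seen, as the repair gene lower by more than 2-fold in all 5 pairs. Controls were at 5.55, 10.996, 6.02, 10.7 and 10.8 CPM and irradiated samples at 2.36, 3.49, 2.59, 3.42 and 3.28 CPM. Irradiated replicates 1 and 3 were the lowest of the irradiated samples, just as controls 1 and 3 were of the controls. The same was true of other repair genes, among them FANCC, FANCE, FANCL and RAD51D. The log2 fold change of BARD1 was -1.50 ± 0.11, with the smallest adjusted p of the 45 genes (5.0e-05). The other genes lower by more than 2-fold were XRCC2, a member of the recombinase paralog complexes (log2 fold change -1.18), BLM, the helicase that dissolves recombination intermediates (-1.18), and BRIP1, the BRCA1-bound helicase (-1.06). Irradiated levels of XRCC2 (3.02 to 3.76 CPM) lay under its lowest control, at 3.88 CPM. Those of BLM (1.30 to 2.18 CPM) overlapped controls 1 and 3. For BRIP1, the irradiated samples (3.05 to 4.02 CPM) all lay above control 3 (2.86 CPM) and below the other 4 controls. Neither gene was called without replicate 4 (adjusted p = 0.063 and 0.067) or without replicate 5 (0.072 and 0.073).

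Smaller falls were called for RAD54B and for RBBP8, the gene of the resection factor CtIP. RAD54B was low throughout (1.58 to 2.37 CPM in controls, 1.31 to 1.53 CPM in irradiated samples, log2 fold change -0.50), and the larger part of its exons is shared with FSBP. It was not called without replicate 2 (adjusted p = 0.054), 4 (0.075) or 5 (0.075). RBBP8 (log2 fold change -0.33) spanned 49.6 to 75.3 CPM in controls and 45.6 to 60.8 CPM in irradiated samples, and it was no longer called without replicate 4 (adjusted p = 0.060) or 5 (0.066). The 3 paralog genes RAD51C, RAD51D and XRCC3 did not pass the test, with log2 fold changes of 0.15, 0.16 and -0.12. All 5 irradiated samples of RAD51C and of RAD51D lay inside their control ranges of 9.55 to 13.9 and 8.32 to 13.4 CPM. For XRCC3, 76.7% of the exons lie under KLC1, so its counts rest on a small part of the gene.

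**Figure D2:**
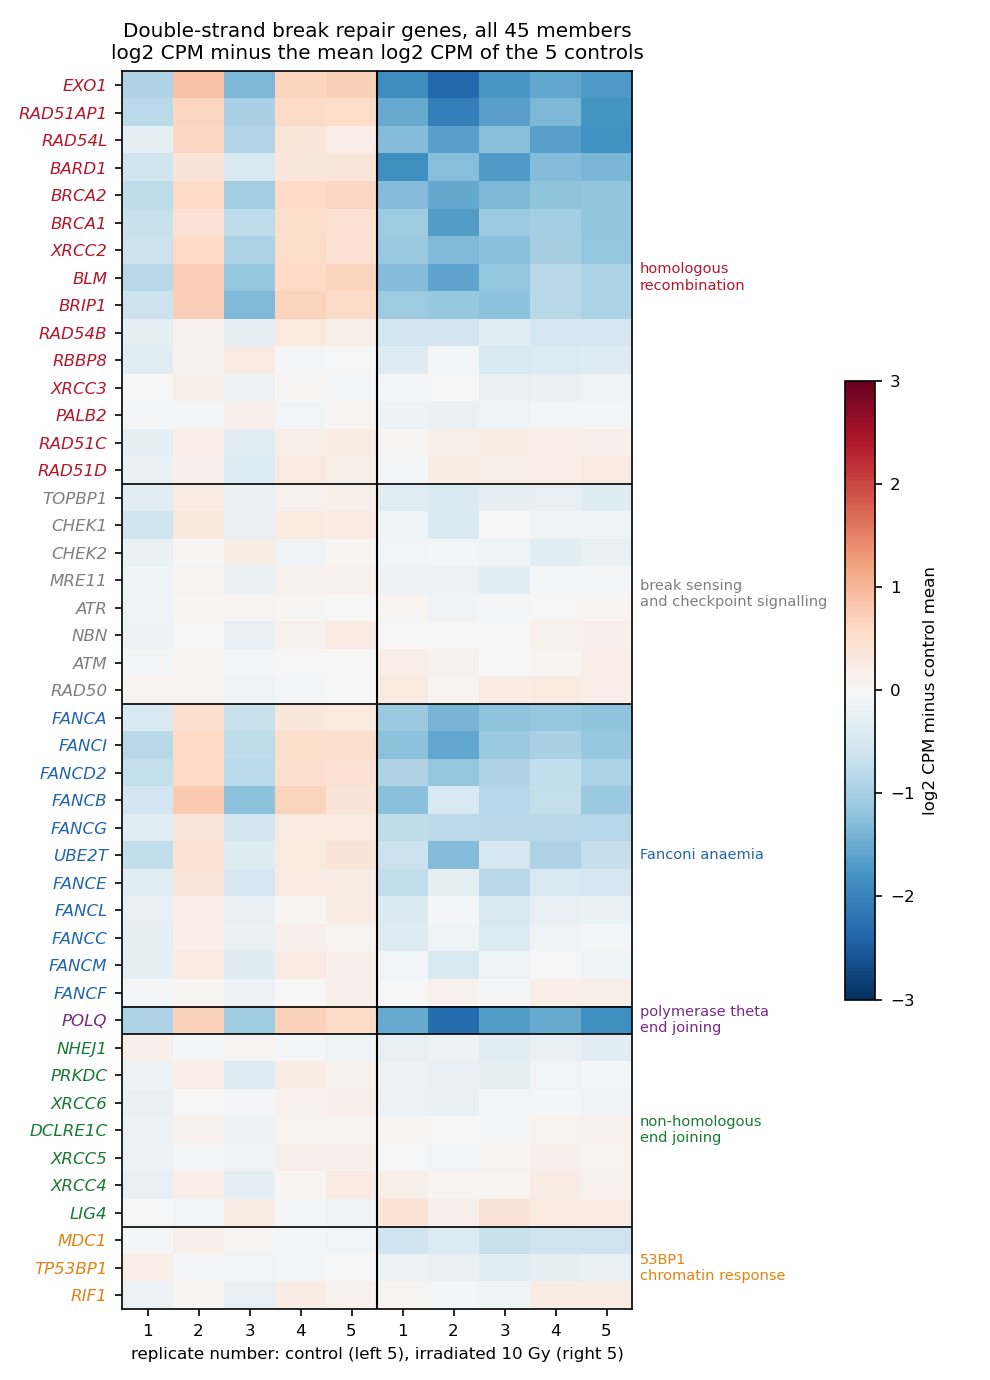
Log2 CPM of each of the 45 genes in each of the 10 samples, minus the mean of the 5 controls (colour scale in log2 units), with rows grouped by class and ordered by fold change. In the POLQ row and in most homologous recombination and Fanconi anaemia rows the irradiated columns are blue. Control columns 1 and 3 are mostly blue there too, usually more weakly. The RAD51C, RAD51D and FANCF rows stay pale in the irradiated columns, as do most non-homologous end-joining rows.

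Most Fanconi anaemia genes fell as well. FANCA, a subunit of the core ubiquitin ligase (chr16:89726683-89816977, minus strand), was at 12.2, 23.3, 10.5, 21.0 and 20.3 CPM in controls and at 7.66, 6.29, 7.25, 7.53 and 7.19 CPM after irradiation. The groups were separate and the gene was 2.33-fold lower (log2 fold change -1.22 ± 0.20, adjusted p = 0.0020). Reads from 19.6% of its exons are lost to overlap with ZNF276. FANCI and FANCD2 form the clamp that the core complex ubiquitinates. FANCI was at 14.3, 38.6, 15.01, 36.5 and 35.7 CPM in controls and at 10.9, 8.74, 11.8, 13.0 and 11.6 CPM in irradiated samples (log2 fold change -1.20 ± 0.27, adjusted p = 0.0081), without overlap. For FANCD2, controls were at 10.0, 24.8, 9.47, 23.2 and 22.3 CPM and irradiated samples at 8.81, 7.41, 8.87, 9.91 and 8.57 CPM. Irradiated replicate 4 of FANCD2 lay above control 3, and the log2 fold change of -0.93 ± 0.25 (adjusted p = 0.018) was not called without replicate 4 (adjusted p = 0.064) or without replicate 5 (0.072).

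UBE2T, the ubiquitin-conjugating enzyme of the pathway, fell by 0.81 on the log2 scale, with controls at 4.39 to 9.77 CPM overlapping irradiated samples at 2.97 to 5.17 CPM. Among the core subunits, log2 fold changes were -0.92 for FANCB, -0.82 for FANCG, -0.56 for FANCE, -0.22 for FANCC and -0.28 for the ligase subunit FANCL. FANCG stood out for its tight irradiated values, 6.36 to 6.82 CPM, all below its controls at 7.835 to 14.97 CPM. FANCB had the lowest counts of the 45 genes, with 56 counts in its lowest sample. UBE2T and FANCC were not called when replicate 2, 4 or 5 was left out (adjusted p = 0.082, 0.112 and 0.113, and 0.051, 0.072 and 0.052), nor was FANCB without replicate 1, 2, 4 or 5 (0.053, 0.064, 0.084 and 0.087) and FANCL without replicate 5 (0.054). Without the replicate block, FANCC and FANCL were not called either (adjusted p = 0.13 and 0.088). FANCF, the adaptor of the core complex, and FANCM, its DNA translocase, did not pass (log2 fold changes of 0.09 and -0.15).

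POLQ encodes polymerase theta itself (chr3:121431431-121545988, minus strand). Its level was 4.02, 12.3, 3.65, 12.2 and 11.4 CPM in controls and 2.66, 1.54, 2.39, 2.67 and 2.14 CPM in irradiated samples. Every irradiated sample was below every control, and the gene was 3.40-fold lower (log2 fold change -1.77 ± 0.37, adjusted p = 0.0065), between EXO1 and RAD51AP1 in size. This value lies outside the range of the 7 non-homologous end-joining genes, -0.26 to 0.30.

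Non-homologous end joining showed no shared direction. PRKDC, the gene of the DNA-PK catalytic subunit, was at 265, 345, 229, 351 and 325 CPM in controls and at 269, 252, 249, 281 and 288 CPM in irradiated samples. All irradiated samples lay inside the control range (log2 fold change -0.16 ± 0.09, adjusted p = 0.16). XRCC5 (Ku80) was at 279, 304, 288, 349 and 349 CPM in controls and at 308, 295, 337, 346 and 339 CPM after irradiation (log2 fold change 0.05 ± 0.06, adjusted p = 0.46), and its partner XRCC6 (Ku70) had a log2 fold change of -0.12 with all 5 irradiated samples inside the control range. XRCC4, the scaffold of ligase IV, and DCLRE1C, the nuclease Artemis, had log2 fold changes of 0.13 and 0.04 and did not pass.

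LIG4, the gene of the ligase that seals the ends, was the larger of the 2 rises (chr13:108207439-108218368, minus strand). Controls were at 22.0, 20.3, 25.4, 20.7 and 20.3 CPM and irradiated samples at 28.6, 24.1, 28.4, 26.3 and 25.9 CPM. Only irradiated replicate 2 lay inside the control range, and within its own pair it was higher too, as in 5 of 5 pairs. The rise was 1.23-fold (log2 fold change 0.30 ± 0.05, adjusted p = 0.0025), which stood under all 14 alternatives. NHEJ1, the gene of the end-joining factor XLF, moved the other way. It was at 7.49, 6.496, 7.03, 6.56 and 6.19 CPM in controls and at 5.69, 6.09, 5.29, 5.74 and 5.39 CPM in irradiated samples. These did not overlap, but the fall was small (log2 fold change -0.26 ± 0.08, adjusted p = 0.030), and it was not called without replicate 1, 3, 4 or 5 (adjusted p = 0.093, 0.056, 0.074 and 0.076). Exons of other genes overlap 25.9% of NHEJ1.

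Sensing and checkpoint genes had log2 fold changes between -0.33 and 0.21. ATM, the kinase that answers double-strand breaks, was at 66.8, 70.7, 66.7, 68.35 and 68.8 CPM in controls and at 78.4, 74.5, 67.7, 71.6 and 77.9 CPM in irradiated samples. It was higher in 5 of 5 pairs but did not pass (log2 fold change 0.12 ± 0.04, adjusted p = 0.069), except without replicate 3 (0.031). ATR, the kinase that answers resected and stalled DNA, had a log2 fold change of -0.01 (adjusted p = 0.93). CHEK1, the effector kinase downstream of ATR, was at 13.0, 24.6, 16.9, 24.3 and 23.6 CPM in controls and at 18.3, 14.6, 19.6, 18.6 and 18.4 CPM in irradiated samples. Irradiated levels were higher than the control in pairs 1 and 3 and lower in pairs 2, 4 and 5, and the fitted log2 fold change was -0.16 ± 0.17 (adjusted p = 0.47). CHEK2, the effector kinase downstream of ATM, also did not pass (-0.16, adjusted p = 0.17).

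TOPBP1, the activator of ATR, was at 27.1, 39.5, 29.5, 36.8 and 38.4 CPM in controls and at 27.3, 25.04, 27.8, 28.4 and 26.5 CPM in irradiated samples (log2 fold change -0.33 ± 0.10, adjusted p = 0.030). Control 1 lay inside the range of its irradiated values and the other 4 controls above it, and the gene was not called without replicate 2 (adjusted p = 0.081), 4 (0.088) or 5 (0.116). The 3 genes of the MRN complex, which binds the broken end first, differed from each other. MRE11, its nuclease, was at 23.7, 27.5, 22.8, 28.5 and 28.7 CPM in controls and at 23.5, 23.1, 21.1, 25.4 and 25.4 CPM in irradiated samples (log2 fold change -0.14 ± 0.05, adjusted p = 0.048). RAD50, its tether, was at 8.57, 8.61, 7.34, 7.88 and 8.005 CPM in controls and at 9.80, 8.57, 9.51, 9.646 and 9.28 CPM in irradiated samples (log2 fold change 0.21 ± 0.08, adjusted p = 0.049). Both calls lay at the threshold. MRE11 was not called without replicate 2, 3, 4 or 5 (adjusted p = 0.139, 0.056, 0.146 and 0.157) nor without the replicate block (0.19), and RAD50 was not called under 11 of 14 alternatives, including without replicate 1, 3, 4 or 5 (0.098, 0.089, 0.150 and 0.114). RAD50 also shares 76.9% of its exons with another annotated gene, ENSG00000283782, so most of its reads were not counted. NBN, the MRN adaptor, did not pass (log2 fold change 0.06).

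The 53BP1 response protects broken ends from resection. MDC1, the adaptor that reads phosphorylated H2AX (chr6:30699807-30717447, minus strand), was at 46.9, 53.9, 49.98, 47.2 and 46.5 CPM in controls and at 32.2, 36.9, 30.9, 31.8 and 31.5 CPM in irradiated samples. The groups were far apart with no split among the controls, and the gene was 1.498-fold lower (log2 fold change -0.58 ± 0.04, adjusted p = 5.6e-05). TP53BP1, the gene of 53BP1, was at 132.8, 110.7, 109.1, 111.4 and 115.7 CPM in controls and at 103.4, 99.3, 92.8, 93.7 and 99.3 CPM in irradiated samples. It fell without overlap (log2 fold change -0.24 ± 0.04, adjusted p = 0.0026), although reads from 28.8% of its exons are lost to opposite-strand genes. RIF1, which acts downstream of 53BP1, did not pass (log2 fold change 0.06, adjusted p = 0.40).

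**Figure D3:**
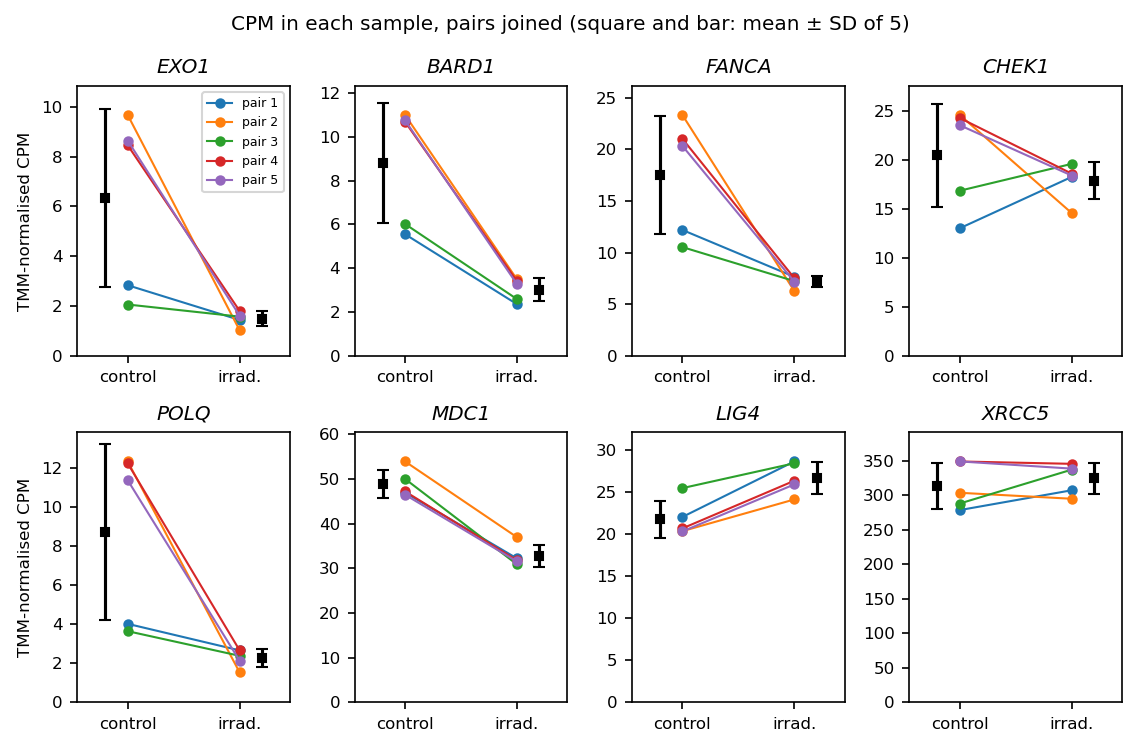
TMM-normalised CPM (y axis, from 0) of 8 genes in each sample, with the samples of a pair joined and squares with bars for mean ± SD of 5 samples. EXO1, BARD1, FANCA and POLQ have controls 1 and 3 well under the other controls, CHEK1 crosses between pairs, MDC1 and LIG4 move the same way in 5 of 5 pairs, and XRCC5 stays between 279 and 349 CPM.

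The spread among the controls itself differed by route. In 35 of the 45 genes (77.8%) controls 1 and 3 were the 2 lowest controls, which held for 20.7% of all genes tested. This was so for all 11 Fanconi anaemia genes, for 12 of 15 recombination genes, for POLQ, and for 5 of 7 non-homologous end-joining genes. The highest control stood a median of 2.45 times above the lowest in recombination, 1.91 times in the Fanconi pathway and 1.25 times in non-homologous end joining, against 1.41 times over all genes. Among irradiated samples these ratios were 1.32, 1.34 and 1.15, against 1.31 over all genes.

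The class means by sample show the same split. Mean log2 CPM of the recombination genes was 2.69, 3.60, 2.53, 3.54 and 3.52 in controls 1 to 5 and 2.27, 2.18, 2.30, 2.41 and 2.32 in irradiated samples. That of the Fanconi genes was 2.75, 3.58, 2.66, 3.49 and 3.47 in controls and 2.51, 2.52, 2.53, 2.65 and 2.59 in irradiated samples. The non-homologous end-joining mean ran from 5.39 to 5.59 in controls and from 5.43 to 5.55 in irradiated samples. Mitosis and replication genes had their lowest controls in the same 2 samples as the recombination and Fanconi genes, and the part of this in the repair results was not tested.

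**Figure D4:**
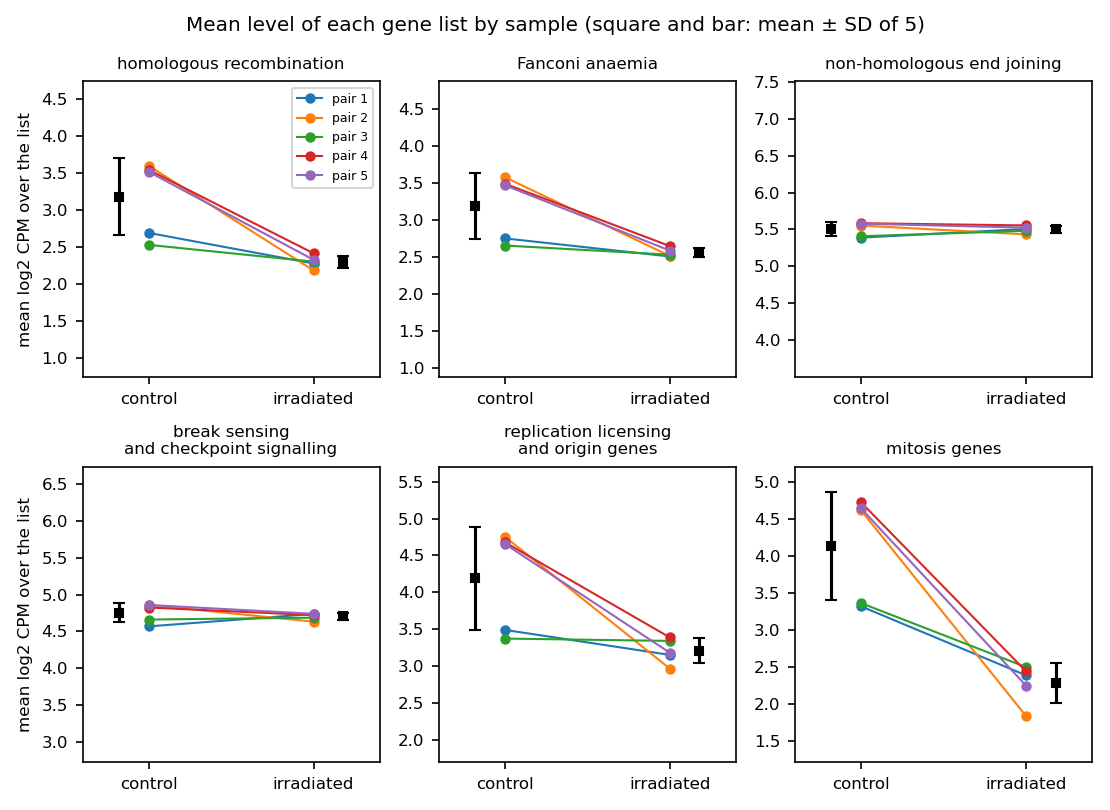
Mean log2 CPM over each gene list (y axis, each panel spanning 4 log2 units) in control and irradiated samples, pairs joined, with squares and bars for mean ± SD of 5 samples. Recombination, Fanconi, replication and mitosis panels have controls 1 and 3 below controls 2, 4 and 5 and closely grouped irradiated samples, while the end-joining and sensing panels are nearly flat.

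Within pairs, falls were larger in pairs 2, 4 and 5. In pairs 1 and 3, 26 and 27 of the 45 genes were lower in the irradiated sample and 1 gene in each (BARD1) was lower by more than 2-fold. In pairs 2, 4 and 5, 41, 36 and 37 genes were lower and 16 in each by more than 2-fold. Of all 19006 genes tested, 9531 and 9884 were lower in pairs 1 and 3, with 872 and 1293 lower by more than 2-fold. In pairs 2, 4 and 5, 8892, 9827 and 9462 of all genes were lower, with 641, 1062 and 926 lower by more than 2-fold. For recombination genes the median within-pair log2 difference (irradiated minus control) was -0.40 and -0.30 in pairs 1 and 3 and -1.87, -1.49 and -1.61 in pairs 2, 4 and 5. For Fanconi genes it was -0.19 and -0.22 against -1.17, -1.11 and -1.07, and for non-homologous end joining 0.14 and 0.12 against -0.15, -0.01 and -0.11. Mitosis genes had medians of -0.98 and -0.85 in pairs 1 and 3 and of -2.99, -2.38 and -2.65 in the others, and replication genes of -0.28 and 0.00 against -1.69, -1.16 and -1.38. The difference between these sets of pairs was not tested, and in each pair the median over all genes was between -0.03 and 0.02.

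When pairs 1 and 3 were left out, 29 of the 45 genes were called lower and 1 higher, against 24.1% and 23.0% of the 17388 genes tested in that fit. The recombination count was again 11 of 15 (median log2 fold change -1.69) and the Fanconi count 10 of 11 (median -1.15). CHEK1, FANCM, PRKDC and XRCC6 were then called lower (log2 fold changes of -0.51, -0.42, -0.33 and -0.23, adjusted p = 0.0032, 0.017, 0.0053 and 0.0053), and NHEJ1 and RAD50 were no longer called (adjusted p = 0.093 and 0.17). Since this choice keeps the controls with the higher levels, larger falls and the calls gained in this fit are partly built into it. Its adjusted p-values are therefore no independent test of these genes.

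Compared per kilobase of the canonical transcript, the routes differed in level as well. XRCC6 and XRCC5 had the highest levels of the 45 genes, 144 and 92.9 CPM per kb in controls and 131.8 and 96.2 CPM per kb after irradiation, followed by PRKDC at 22.5 and 19.9 CPM per kb. The median level of the recombination genes was 1.84 CPM per kb in controls and 0.704 CPM per kb in irradiated samples, and that of the Fanconi genes 3.52 and 2.37 CPM per kb. For non-homologous end joining the medians were 5.46 and 6.69 CPM per kb, both of them the values of LIG4, while the median log2 fold change of its 7 genes was 0.04. LIG4 moved from 14th to 7th in the order of the 45 genes (5.46 to 6.69 CPM per kb), and FANCI from 12th to 26th (5.92 to 2.37 CPM per kb). The genes that LIG4 passed were UBE2T, MDC1, TOPBP1, FANCI and FANCL, which were called lower, and XRCC3 and ATR, which were not. Levels per kilobase were not corrected for reads lost at overlaps, as in RAD50, XRCC3 and RAD54B. Neighbours in this order often differ by less than their spread over samples, as for EXO1, XRCC2 and BARD1 in controls (1.84, 1.74 and 1.61 CPM per kb). BRCA2 was the lowest in irradiated samples, at 0.243 CPM per kb.

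**Figure D5:**
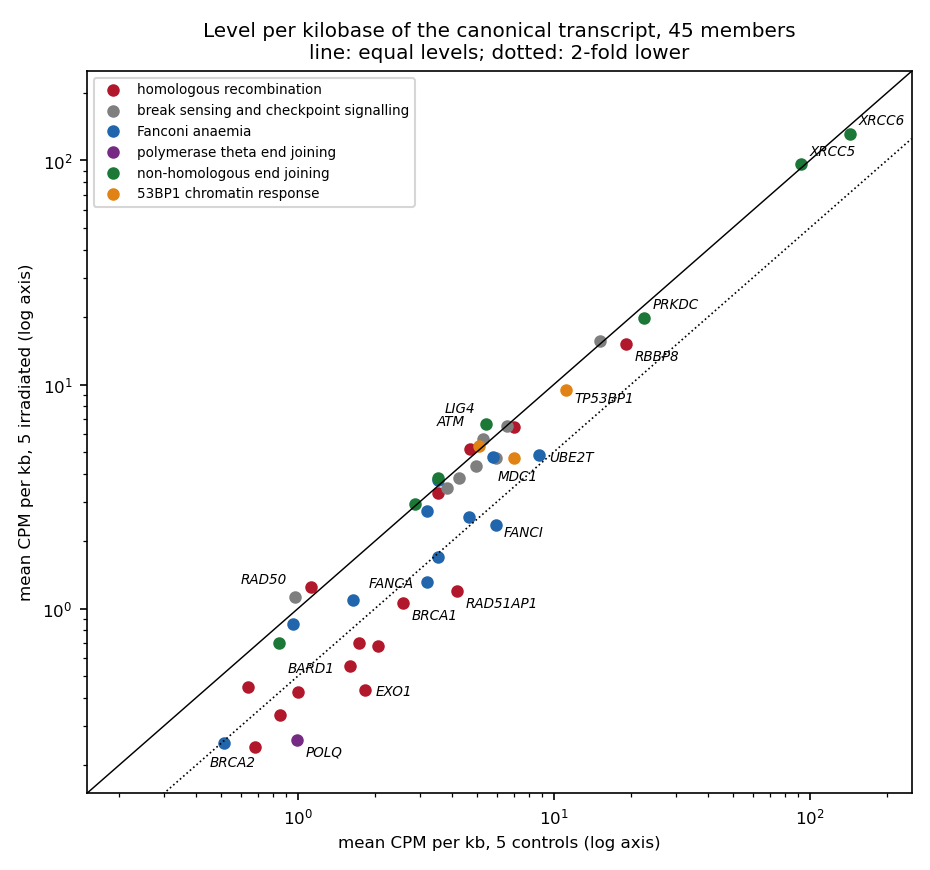
Mean CPM per kb of the canonical transcript in 5 controls (x axis) and 5 irradiated samples (y axis) for the 45 genes, both on log axes, coloured by class, with lines of equal level and of 2-fold lower level. The Ku genes lie at the top near the line of equal level, and the genes at or under the 2-fold line all have control levels under 10 CPM per kb.

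Further genes of the same routes, outside the 45, were counted in the same fit. Of 24 other recombination genes tested (25 listed), 10 fell and 1 rose, with a median log2 fold change of -0.24, from EME1, a nuclease subunit that cuts recombination intermediates (-1.26), to ZSWIM7 (0.15). Among 11 other Fanconi genes 3 fell and 1 rose (median -0.17), from USP1, the enzyme that removes ubiquitin from the FANCI and FANCD2 clamp (-0.92), to FAAP20 (0.12). Of 11 other end-joining genes 4 fell and 2 rose (median -0.05), from LIG3 (-0.40) to APLF, an end-joining scaffold (0.82). Among 22 other break signalling genes 4 fell and 3 rose (median -0.03), from CLSPN, the mediator between ATR and CHEK1 (-1.44), to HUS1 (0.47). Over all genes tested, 22.7% fell and 23.9% rose. Falls in these further lists were 3 of 11 for Fanconi and 4 of 11 for end-joining genes, the opposite order to that among the 45. No test compared these lists with the 45 genes.

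Other repair pathways had medians near 0, and the shares of all genes to set beside their counts are again 22.7% lower and 23.9% higher. In nucleotide excision repair 3 of 13 fell and 4 rose, from XPA (-0.28) to DDB2, a damage sensor and p53 target (1.77). Of 7 mismatch repair genes 2 fell and 1 rose, from MSH6 (-0.42) to PMS2 (0.37). In base excision repair 2 of 14 fell and 3 rose, from the glycosylase NEIL3 (-1.81) to POLB (0.47). By contrast, 13 of 16 replication genes fell and 0 rose (median -0.86, MCM10 -1.67 to GINS3 -0.44), and 20 of 20 mitosis genes fell (median -1.96, MKI67 -2.57 to NUSAP1 -0.81). Exons of other genes overlap 86.8% of NUSAP1, so its value rests on few reads (510 counts over the 10 samples). Of 15 p53 targets with repair or damage roles, 14 rose and 0 fell (median 1.32), from POLH, which did not pass (0.09), to the cell cycle inhibitor CDKN1A (2.92). DDB2 and XPC stand in both the excision repair and the p53 lists. The median of the recombination genes, -1.18, lay between those of the replication and the mitosis genes.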

How the data were processed

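Bulk poly-A RNA-seq of 5 control and 5 irradiated samples was used, grouped by treatment as labelled. The authors used Trim-Galore on the reads and STAR for alignment to GRCh38, with its own gene counting, and deposited these whole-number counts unnormalised and unfiltered. The annotation release was not given in the sources used here, and the labels and the methods name different library kits. All 17 protein-coding genes wholly under exons of the opposite strand held 0 counts, against 9.29% of 10506 without overlap, so counting was taken as unstranded, with reads lost where genes overlap. Symbols, overlaps and coordinates came from GENCODE on GRCh38.

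The test was edgeR 4.0.16 in R 4.3.3 (TMM, glmQLFit, glmQLFTest), over the 19006 genes that reached 200 counts in total, with the replicate block and the minimum of the study's own analysis. Benjamini-Hochberg adjusted p-values under 0.05 were called. Standard errors are the log2 fold change over the square root of F. CPM are TMM-normalised, with a prior count of 0.5 for mean log2 CPM over lists. Depth was 66269311 to 131555873 counts, so the spread between replicates sets the precision of most genes. Counts of replicates of a group differed beyond sampling noise (chi-square per gene of 8.5 or more). Replicates 4 and 5 were the closest in each group, at 8.5 in irradiated samples and 15.2 in controls. The other comparisons ran from 40.5 to 88.6 in irradiated samples and from 57.2 to 214 in controls. Why replicates 4 and 5 lay closer was not tested. Nothing stated that replicates were separate cultures, so p-values measure the spread between these samples, which may be technical. Deviations from group means correlated between samples of the same number (0.22 to 0.50), against -0.35 to 0.30 for different numbers, so numbers were taken to pair the samples. The fit was tested on simulated data.

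Members and gene lists were chosen with earlier results of these data known. Values in every sample are given for the 3 largest called changes of each class, any rise, and BRCA1, BRCA2, FANCD2, FANCA, ATM, CHEK1, PRKDC, XRCC5, POLQ and TP53BP1. Where RefSeq lists several starts, the promoter nearest the canonical start was used, which lies 1061 bases from it for CHEK1 and 17484 for TP53BP1. PRKDC, NBN, RAD54B, XRCC5 and FANCI had no promoter entry. Alternatives were DESeq2 1.42.0, limma-voom (limma 3.58.1), other normalisations and filters, no block, each replicate left out and pairs 1 and 3 left out. Figures were drawn with matplotlib 3.10.9.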

Additional observations from a re-analysis of the deposited data

Results flagged for a closer look

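Among the 90 groups of 5 values (45 genes in 2 groups), 6 held a sample far from its group by Dixon's test, where chance alone gives about 4.5. Of these, 4 were in irradiated replicate 2. BRCA1 was at 5.33 CPM there, against 7.54 to 8.38 CPM in the other irradiated samples, and CHEK1 was at 14.6 CPM, against 18.3 to 19.6 CPM. RBBP8 stood at 60.8 CPM in the same sample, against 45.6 to 47.9 CPM. MDC1 was also high in irradiated replicate 2, at 36.9 CPM against 30.9 to 32.2 CPM, though still below every control. RAD54B was high in irradiated replicate 3, at 1.53 CPM against 1.31 to 1.36 CPM. TP53BP1 was high in control replicate 1, at 132.8 CPM against 109.1 to 115.7 CPM, and without that replicate it was still called lower. Irradiated replicate 2 also had the smallest number of counts on genes, 66269311.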

How the results depend on the processing

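Over 14 alternatives for each of the 45 genes (630 comparisons), 558 kept the direction and the side of the threshold. For 18 genes all 14 alternatives did so, and 27 genes changed under at least 1. Of all 19006 genes tested, 4307 fell in the report, 3366 with no replicate block and 5894 with library size only. Falls were 4185 of 17388 from pairs 2, 4 and 5 only, 2972 of 18264 without replicate 4 and 2943 of 18244 without replicate 5. The number of the 45 genes called lower was 26 in the report, 23 with no replicate block and 29 with library size only. From pairs 2, 4 and 5 only it was 29. With 1 replicate left out it was 14 to 24, the fewest without replicates 4 (15) and 5 (14). The number called higher was 2 in the report and 2 with no replicate block, 1 (LIG4) under upper quartile normalisation, DESeq2 size factors in edgeR, library size only, DESeq2, a minimum of 1 count, filterByExpr and pairs 2, 4 and 5 only, and 1 to 2 with 1 replicate left out. Besides the calls of MRE11, FANCC and FANCL, the block changed no call of the 45 genes. With library size only, the log2 fold changes of NBN (-0.01998), XRCC5 (-0.0224), DCLRE1C (-0.0358) and RIF1 (-0.0167) reversed, and of all calls 38.0% were rises, against 51.4% in the report, with a shift of -0.08 in the median of all genes. From pairs 2, 4 and 5 only, the values of RAD51C (-0.0394), NBN (-0.0508), XRCC5 (-0.0499), XRCC4 (-0.0531), DCLRE1C (-0.0456) and RIF1 (-0.0243) reversed. With 1 replicate left out, ATR ran from -0.0514 to 0.0345 and DCLRE1C from -0.00112 to 0.0977. None of these reversed values was called in either fit. The causes were not tested.

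The spread among the 5 controls limits the precision of the recombination and Fanconi genes. Loss of reads at overlapping genes limits RAD50, XRCC3 and RAD54B most.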
